A study of Homo sapiens with 12 samples.

Results

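Interstitial collagens and the glycoproteins, proteoglycans and crosslinking enzymes that assemble with them were followed here as 47 genes in cultured human podocytes, the epithelial cells that cover the glomerular capillaries. The 47 genes were given as a list of symbols, without type IV collagen chains and laminins, and each symbol matched 1 of the 62656 rows of the count table through its Ensembl identifier. By role they comprised 7 fibrillar collagen chains, 3 collagen VI chains, 8 other collagen chains, 8 adhesive and matricellular glycoproteins, 11 elastic fibre and microfibril genes, 4 proteoglycans, 5 lysyl oxidases and CRIM1, a transmembrane protein that binds bone morphogenetic proteins. All 47 had reads, and all 47 passed the filter on low counts that left 17470 genes for testing.

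The cells came from a conditionally immortalized human podocyte line with a temperature-sensitive SV40 large-T antigen, which all groups share. They proliferate at 33 °C and were kept at 37 °C for 12 days to differentiate, on vessels coated with collagen I protein. One derivative carried pCW-eGFP (the GFP line) and the other an inducible FLAG-NLS-YAP5SA (the YAP5SA line), a tagged, nuclear-targeted form of the transcriptional co-activator YAP whose Hippo kinase sites are mutated. Each line was left without doxycycline or received 0.1 µg/ml for 24 hours, which gave 4 groups of 3 libraries: GFP without doxycycline, GFP with doxycycline, uninduced YAP5SA and induced YAP5SA. Whether either line is 1 clone is not given in the sources used here. The replicates are numbered 1 to 3 without a statement that they were separate cultures, so p-values reflect only how far these samples spread, a spread that may be technical.

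Fibrillar collagens form the load-bearing fibres of connective tissue, and collagen VI, collagen XII and small leucine-rich proteoglycans sit on or between those fibres. Fibronectin, thrombospondins and related matricellular proteins link the matrix to cell surface receptors, while fibrillins, fibulins and LTBPs build microfibrils and elastic fibres that also store latent TGF-beta. Lysyl oxidases crosslink collagen and elastin. The healthy glomerulus contains mainly basement membrane collagen, and interstitial collagens and fibronectin accumulate in it during scarring and in crescents. YAP has no DNA-binding domain of its own and acts largely through TEAD transcription factors.

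Of all 47 genes, COL12A1, THBS1 and COL7A1 held their difference between the doxycycline effects of the lines under every alternative fit and every left-out library, so the 250 bases before their transcription starts are shown. COL12A1 encodes a fibril-associated collagen (ENSG00000111799, chr6:75084326-75206051, minus strand), THBS1 encodes thrombospondin-1 (ENSG00000137801, chr15:39581079-39599466, plus strand), and COL7A1 encodes the anchoring fibril collagen (ENSG00000114270, chr3:48564073-48595267, minus strand). The sequences are RefSeq's on GRCh38.p14, written 5′ to 3′ on the strand of the gene, and lie at chr6:75206054-75206303, chr15:39580829-39581078 and chr3:48595330-48595579. Capitals mark the TEAD element GGAATG in COL12A1 and THBS1 and, in COL7A1, the letters TTTATA, which read TATAAA on the other strand.
COL12A1: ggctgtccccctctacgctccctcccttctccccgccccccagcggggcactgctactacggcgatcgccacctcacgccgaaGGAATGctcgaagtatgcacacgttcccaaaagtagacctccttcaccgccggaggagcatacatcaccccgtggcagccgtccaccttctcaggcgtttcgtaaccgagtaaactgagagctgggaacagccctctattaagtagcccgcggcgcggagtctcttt
THBS1: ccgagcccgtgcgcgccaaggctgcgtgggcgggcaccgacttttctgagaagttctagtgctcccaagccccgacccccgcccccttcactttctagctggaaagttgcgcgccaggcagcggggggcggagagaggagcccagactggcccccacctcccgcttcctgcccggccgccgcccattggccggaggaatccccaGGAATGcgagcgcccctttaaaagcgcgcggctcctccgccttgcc
COL7A1: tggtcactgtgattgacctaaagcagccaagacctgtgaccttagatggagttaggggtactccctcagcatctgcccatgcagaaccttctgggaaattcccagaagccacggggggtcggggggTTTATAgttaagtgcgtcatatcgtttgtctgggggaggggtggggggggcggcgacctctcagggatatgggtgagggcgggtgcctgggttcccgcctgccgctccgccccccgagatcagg
The TEAD letters began 167 bases before the start in COL12A1 and 46 before it in THBS1, and the TATA letters 124 before it in COL7A1. Both strands were searched, in windows of 250 bases before to 50 after each start, and RefSeq's table held 43 such windows for 34 of the 47 genes. GGAATG occurred in 6 member windows (14.0%), those of COL12A1, THBS1, THBS2, SPARC, FBN1 and LOXL3, and in 14.0% of all 35116 windows. The AP-1 element TGANTCA occurred in 1 (2.33%), that of POSTN, against 7.71% of all windows, and TATAAA in 7 (16.3%) against 11.5%. The shares of the TEAD element were thus the same in both sets, and a match describes letters in a window only.

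Library totals ranged from 24477592 to 25993413 counts, and the 47 genes took 3.59% to 3.85% of each. Levels are given as CPM, the reads of a gene relative to its library total after TMM scaling. YAP1, whose row can count transgene and endogenous reads together, was at 1757, 1672 and 969.8 CPM in the induced libraries and between 173 and 375 CPM in all others. eGFP was not analysed here. Of the podocyte markers, KIRREL1 had 146887 reads, SYNPO (synaptopodin) 141676, CD2AP 79474 and PODXL 12514 over all 12 libraries, whereas WT1 had 71 and NPHS1 (nephrin) 18. The summed level of the 12 podocyte markers was 1281 to 1361 CPM in the first 3 groups and 1247 to 1285 in induced YAP5SA. Single markers moved more than this sum. Of the 9 tested on induction, 1 was called higher and 2 lower (33.3%, beside 19.1% of all genes), with log2 fold changes from -1.41 to 1.64. All 10 mesangial, fibroblast and smooth muscle markers had reads. TAGLN had 373995, CNN1 119690 and ACTA2 35621, whereas PDGFRA had 15, DES 42 and MYH11 63. The 10 markers summed to 1596 to 1836 CPM in the GFP libraries, 1849 to 1919 in uninduced and 1775 to 1837 in induced YAP5SA. The 8 parietal epithelial markers, all with reads, summed to 4043 to 4288 CPM in the first 3 groups and to 3582 to 3643 in induced YAP5SA. Tubule markers (6 of 8 with reads, UMOD and AQP2 at 0) and leukocyte markers each summed to at most 5.28 CPM. The 7 endothelial markers summed to 33.2 to 43.0 CPM in the first 3 groups and to 28.3 to 31.7 in induced YAP5SA. EHD3 had 10433 of their reads and VWF, the next, 290. The endothelial and parietal sums were thus lower in induced YAP5SA without overlap. Of the 3 endothelial markers tested on induction, however, 2 were called higher and 0 lower (log2 from -0.28 to 1.01). Of the 8 parietal markers 0 were called higher and 3 lower, and 19.1% of all genes were called. The part of any of these marker groups in the results on matrix genes was not tested. In bulk RNA fewer cells of a type and less RNA per cell cannot be told apart.

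Reads of the 47 genes were dominated by FN1, the gene of fibronectin. Several collagen genes whose products are known to assemble together were present at very unequal levels. FN1 took 42.2% of all reads of the 47 genes, and FN1, THBS1 and SPARC together took 57.4%. Per kilobase of exon length, averaged over 12 libraries, FN1 stood at 908 CPM, THBS1 at 410, SPARC (a collagen-binding matricellular protein) at 394, LOXL2 (a lysyl oxidase) at 224 and COL1A1 at 183. Then came TNC (tenascin-C) at 135, CRIM1 at 132, COL18A1 at 124, TGFBI at 109 and COL8A1 at 87.9 CPM per kb. In all, 30 genes were at 10 CPM per kb or more, 6 between 1 and 10, and 11 under 1.

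Chains of the same collagen type were often far apart. COL1A1, the alpha1 chain of collagen I, had 546550 reads and COL1A2, its partner, had 602, a ratio per length of 1031. COL6A1 and COL6A2 were near each other at 77.2 and 71.3 CPM per kb, whereas COL6A3, the chain that completes the usual collagen VI trimer, was at 0.289. The collagen V chains COL5A1 and COL5A2 differed little, at 45.8 and 40.0 CPM per kb, and COL5A3, the third chain, was 438 times below COL5A1. COL8A1 exceeded COL8A2 by 519 times. COL11A1, which can assemble with collagen V chains, was at 69.8. COL3A1, the collagen III chain typical of fibroblasts, was at 2.01 CPM per kb. Among the small leucine-rich proteoglycans, LUM (lumican) was at 31.3 CPM per kb while DCN (decorin) was at 0.0898 and BGN (biglycan) at 0.116. LUM and DCN are neighbours on chromosome 12, 28.7 kb apart and on the same strand. Lengths are those of all annotated exons joined, so a gene with many unused exons is understated on this scale.

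**Figure D1:**
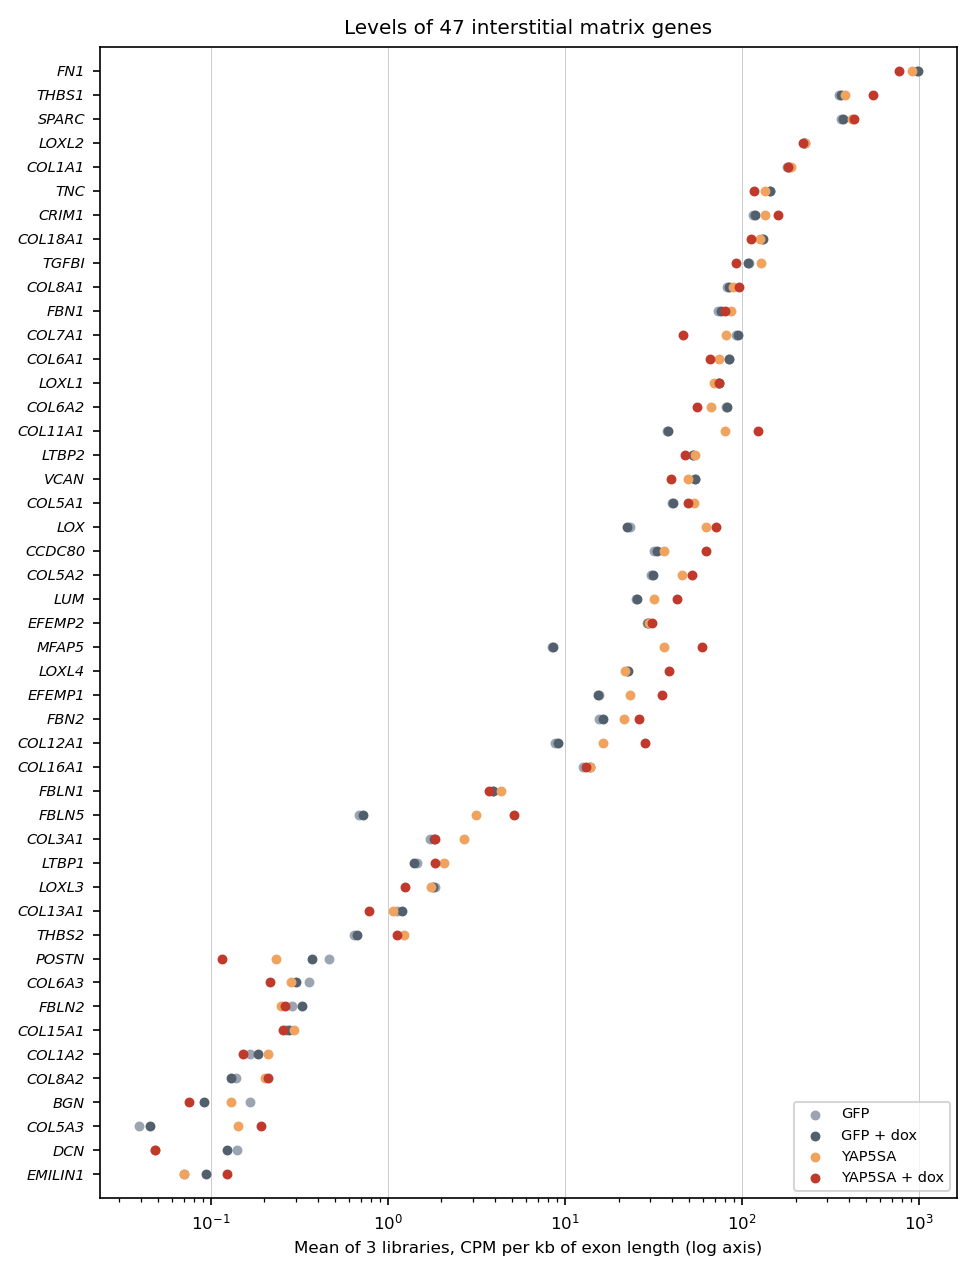
Mean level of each of the 47 genes in each of the 4 groups (3 libraries each), in CPM per kb of exon length on a log axis. Genes are ordered by level, from FN1 near 908 CPM per kb to EMILIN1 near 0.0891, and for most genes the 4 points lie close together.

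COL1A1 and COL1A2 varied more between replicate numbers than between groups. COL1A1 was at 1832, 1194 and 2258 CPM in GFP, 1792, 1244 and 2376 in GFP with doxycycline, 1808, 1201 and 2577 in uninduced YAP5SA and 1765, 1139 and 2425 in induced YAP5SA. Replicate 2 was the lowest and replicate 3 the highest in every group, and the log2 fold change with induction was -0.07 ± 0.39 (SE, edgeR adjusted p = 0.934). COL1A2 showed the same order at low level, from 0.832 to 2.61 CPM in GFP and from 0.473 to 2.84 in induced YAP5SA. One order of the replicate numbers in all 4 groups was found for 13 of the 47 genes (27.7%) and for 9.99% of the genes tested. The others with such an order were COL18A1, SPARC, TGFBI, FBN2, FBLN1, FBLN2, EFEMP2, LUM, LOXL2, LOXL3 and LOXL4. What a replicate number stands for is not given in the sources used here.

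**Figure D2:**
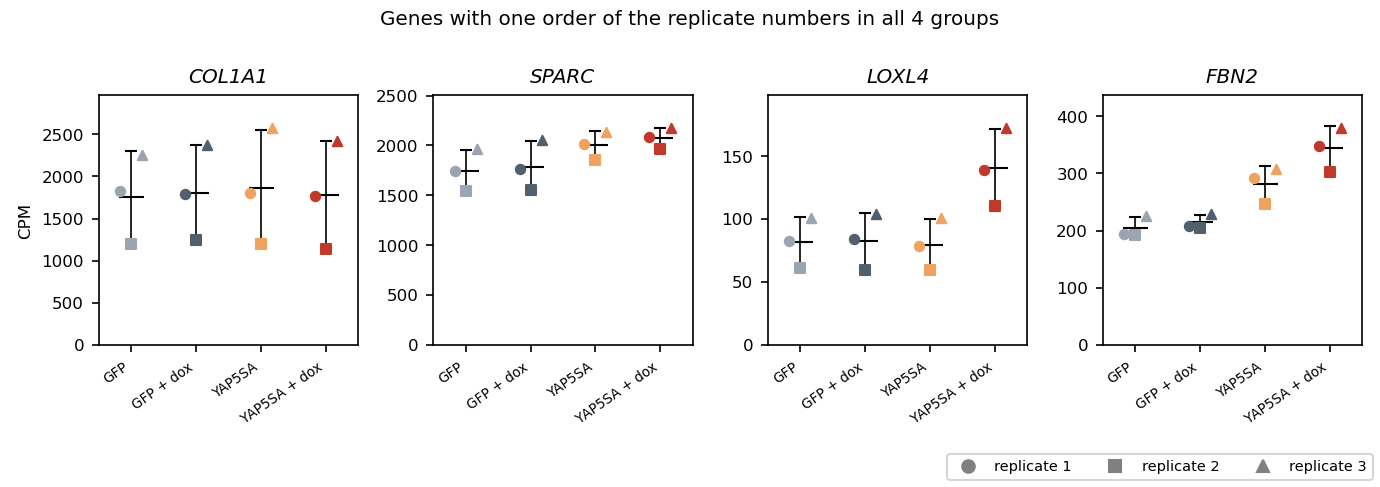
CPM of single libraries (points, with a marker shape for each replicate number) and the mean ± SD of each group (bars, n = 3) for COL1A1, SPARC, LOXL4 and FBN2, whose replicate numbers kept one order in all 4 groups. COL1A1 replicate 2 lies between 1139 and 1244 CPM in every group, below replicates 1 and 3.

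Doxycycline in the GFP line gives the background for the inducer together with any change in eGFP. As eGFP was not analysed, these cannot be told apart here. No member was called among the 47, and 0% of all genes tested were called by edgeR (282 at an unadjusted p below 0.05). Those 282 are fewer than a threshold of 0.05 gives on average among 17470 genes without any effect. The test was thus conservative in this comparison, and a lack of calls does not show a lack of effect. DESeq2 called 1 gene and limma-voom 0, no member among them. Log2 fold changes of the members ran from -0.85 (BGN, 86 reads in all) to 0.41 (EMILIN1, 107 reads), with a median of 0.02 against 0.00 over all genes. The labels number the replicates without stating a pairing, and the fits above had no replicate block. With the number as a block, 1 gene and no member was called. With the GFP libraries blocked alone, 20 genes and no member were called.

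In the YAP5SA line, 24 hours of doxycycline changed 18 of the 47 genes, 8 upwards and 10 downwards. COL12A1, CCDC80, FBLN5, COL11A1, EFEMP1, THBS1, LUM and CRIM1 rose, by 0.24 to 0.80 on the log2 scale. POSTN, COL7A1, COL3A1, COL13A1, TGFBI, VCAN, COL6A2, FN1, LTBP2 and COL6A1 fell, by 0.18 to 0.998. The called share was 38.3% of the members beside 19.1% of all 17470 genes (9.83% higher and 9.28% lower), at a Benjamini-Hochberg adjusted p below 0.05 in edgeR. The median log2 fold change was -0.06 over the members and -0.00 over all genes. By role, 1 fibrillar collagen rose and 1 fell of 7, 2 of 3 collagen VI chains fell, and of 8 other collagens 1 rose and 2 fell. Of 8 adhesive glycoproteins 2 rose and 3 fell, and of 11 elastic fibre genes 2 rose and 1 fell. Of 4 proteoglycans 1 rose and 1 fell, and no lysyl oxidase passed in this fit.

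**Figure D3:**
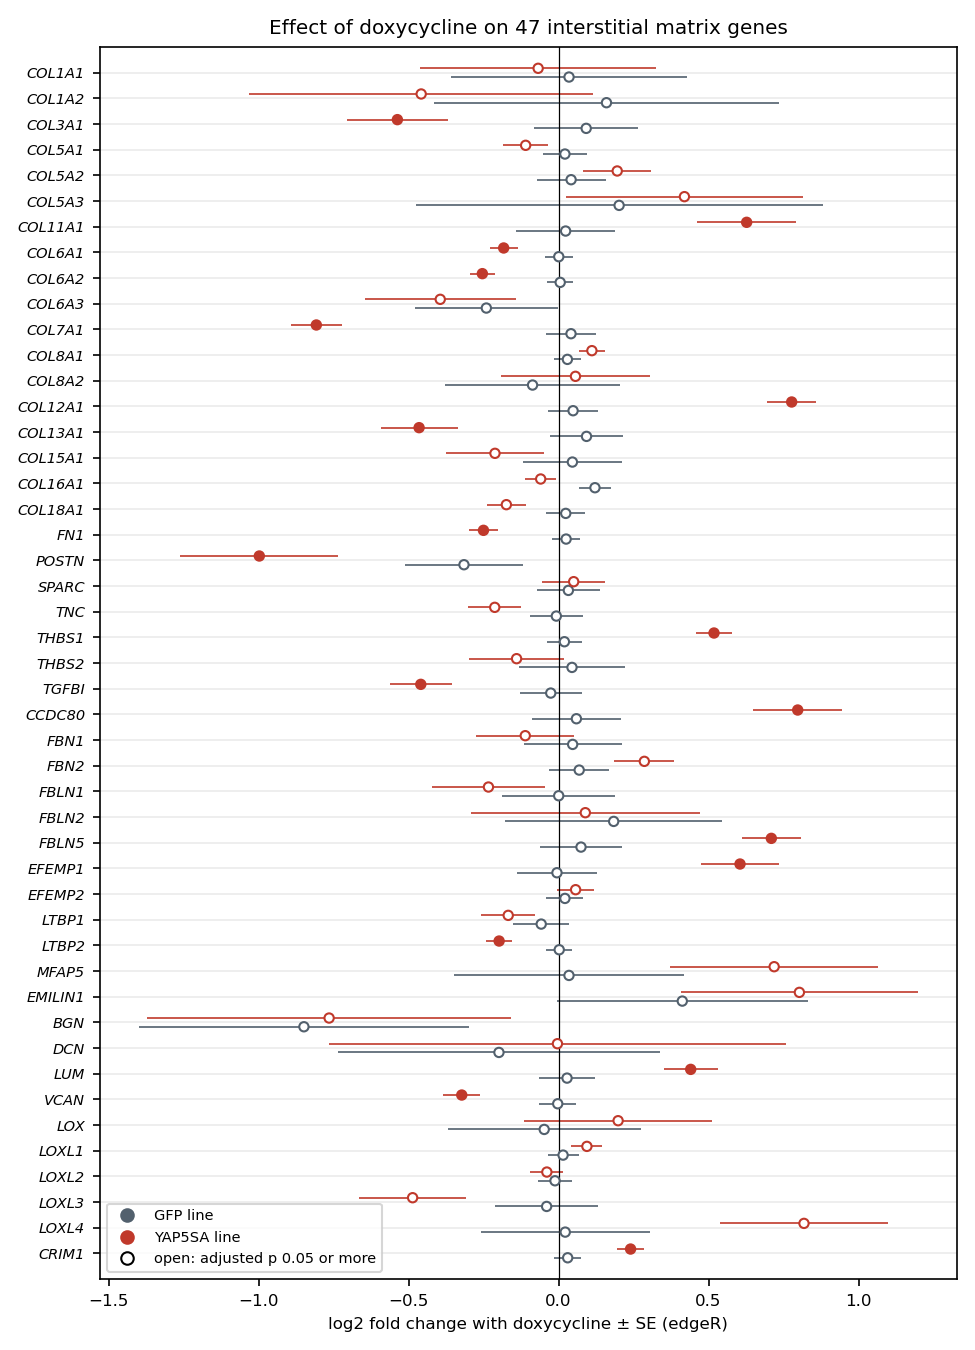
Log2 fold change with doxycycline ± SE from edgeR for the 47 genes in the GFP line and the YAP5SA line, filled where the adjusted p is below 0.05. No point is filled for the GFP line, and 18 are filled for the YAP5SA line, from POSTN at -0.998 to CCDC80 at 0.80.

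COL12A1 and COL11A1 were the collagens that rose. COL12A1 was at 219, 192 and 203 CPM in uninduced and 360.5, 357 and 335 CPM in induced YAP5SA, and at 97.1 to 121 CPM in the 6 GFP libraries. The groups of the YAP5SA line did not overlap, and all GFP libraries lay below both. Without any effect, 3 libraries separate wholly from 3 others in 10% of cases. A lack of overlap is thus given throughout as a description only. COL12A1 rose by 0.78 ± 0.08 on the log2 scale (edgeR adjusted p = 5.15e-05). COL11A1, a minor fibrillar collagen that nucleates fibrils, was at 757, 706 and 717 CPM uninduced and 1019.5, 1202 and 1146 induced, and at 264 to 388 in the GFP libraries. Its induced libraries were all above the uninduced ones, with a rise of 0.63 ± 0.17 (edgeR adjusted p = 0.0248). That call was lost without any 1 library of the YAP5SA line other than induced replicate 1 (0.58 to 0.66), and without a filter on low counts (adjusted p = 0.0845).

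COL3A1 moved the other way from COL11A1 within the fibrillar group. It was at 22.5, 14.8 and 17.4 CPM in uninduced and 12.6, 11.6 and 13.4 in induced YAP5SA, and at 9.15 to 13.8 in the GFP libraries. The uninduced libraries were the highest of the 12 and the induced ones lay within the range of the GFP line. The fall was -0.54 ± 0.17 (edgeR adjusted p = 0.0447), and it shrank to -0.35 and lost its call without uninduced replicate 1. The call was also lost without every other YAP5SA library except uninduced replicate 2, without the low-count filter, in limma-voom and with a correction for GC content. COL5A1 and COL5A2, the main collagen V chains, had log2 fold changes of -0.11 and 0.20 and did not pass.

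Both abundant collagen VI chains fell by a small amount. COL6A2 was at 358, 367 and 347 CPM in uninduced and 313, 291 and 295 in induced YAP5SA, and at 426 to 457 in the GFP libraries. The 3 levels did not overlap, and the fall was -0.25 ± 0.04 (edgeR adjusted p = 0.00117). COL6A1 was at 399, 383 and 408 CPM uninduced, 364, 324 and 359 induced and 437 to 465 in the GFP libraries, again without overlap. Its fall of -0.18 ± 0.05 (edgeR adjusted p = 0.0148) was lost without uninduced replicate 1 or 3 or induced replicate 2 (-0.17 to -0.13), and with a GC correction (-0.10, adjusted p = 0.258). COL6A1 and COL6A2 lie 93.0 kb apart on chromosome 21, and their transcripts have a GC content of 63.5% and 66.4%. COL6A3 was at 3.31 to 5.72 CPM induced and 3.95 to 6.95 uninduced, which overlap.

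COL7A1, whose product anchors epithelial basement membranes to the stroma below, showed the deepest fall among the abundant members. It was at 923, 917 and 838 CPM in uninduced and 462, 531 and 537 in induced YAP5SA, and at 935 to 1168 in the GFP libraries. All induced libraries were far below the other 9, with a change of -0.81 ± 0.08 (edgeR adjusted p = 5.46e-05). COL13A1, a transmembrane collagen, was at 6.44, 6.31 and 6.17 CPM uninduced, 3.99, 4.10 and 5.60 induced and 5.79 to 7.21 in the GFP libraries. Induced replicate 3 was the nearest to the other groups, and the fall was -0.46 ± 0.13 (edgeR adjusted p = 0.0219). That call ended without uninduced replicate 1 or 2 or induced replicate 1 or 2 (-0.46 to -0.37), and when the 2 groups were compared alone.

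Among the adhesive glycoproteins, the most abundant one fell and the next rose. FN1, fibronectin, was at 14767, 16605 and 16113 CPM in uninduced and 13511, 13532 and 12879 in induced YAP5SA, and at 16101 to 17351 in the GFP libraries. The induced libraries were the lowest 3 of the 12, and the fall was -0.25 ± 0.05 (edgeR adjusted p = 0.00259). THBS1, which binds matrix and cell surface receptors and can activate latent TGF-beta, was at 3553, 3381 and 3559 CPM uninduced and 4708, 5375 and 4944 induced, and at 2997 to 3395 in the GFP libraries. Every induced library was above every other, a rise of 0.52 ± 0.06 (edgeR adjusted p = 6.74e-05). CCDC80, a secreted protein that binds matrix, was at 460.4, 434 and 516 CPM uninduced and 707, 825 and 921 induced, and at 341 to 496 in the GFP libraries. Its uninduced libraries overlapped with the GFP line and its induced ones did not, with a rise of 0.80 ± 0.15 (edgeR adjusted p = 0.00457).

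TGFBI, a TGF-beta-induced adhesion protein, was at 933, 1138 and 908 CPM in uninduced and 725, 804 and 638 in induced YAP5SA, and at 755 to 894 in the GFP libraries. The uninduced libraries were the highest of the 12, and the induced ones overlapped with the GFP line. TGFBI fell by 0.46 on the log2 scale with an SE of 0.10 (edgeR adjusted p = 0.00943). POSTN, periostin, was close to the detection limit with 488 reads in all 12 libraries. It was at 0.987, 1.27 and 1.54 CPM uninduced, 0.712, 0.552 and 0.631 induced and 1.62 to 2.88 in the GFP libraries, 3 ranges without overlap. Its fall of -0.998 ± 0.26 (edgeR adjusted p = 0.0177) was lost without uninduced replicate 3 (-0.83) or induced replicate 2 (-0.91). SPARC and TNC did not pass, at 0.05 and -0.21.

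Of the elastic fibre genes, FBLN5 and EFEMP1 rose and LTBP2 fell. FBLN5, fibulin-5, which brings elastin to microfibrils, was at 16.6, 16.5 and 13.6 CPM in uninduced and 25.2, 27.4 and 23.8 in induced YAP5SA, and at 2.88 to 3.89 in the GFP libraries. The 3 ranges were far apart, and the rise with induction was 0.71 ± 0.10 (edgeR adjusted p = 0.000273). EFEMP1, fibulin-3, was at 91.2, 99.1 and 84.1 CPM uninduced and 121, 162 and 134 induced, and at 55.0 to 73.1 in the GFP libraries. The ranges did not overlap here either, and the rise was 0.60 ± 0.13 (edgeR adjusted p = 0.00873). The fibulins FBLN1, FBLN2 and EFEMP2 did not pass. LTBP2, a microfibril protein of the latent TGF-beta binding family, was at 472, 506 and 505 CPM uninduced and 429.7, 436 and 426 induced, and at 450.4 to 493 in the GFP libraries. Its induced libraries were the lowest of the 12, a fall of -0.20 ± 0.04 (edgeR adjusted p = 0.00617).

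MFAP5, a microfibril-associated glycoprotein, was at 154, 137 and 128 CPM in uninduced and 246, 223 and 221 in induced YAP5SA. These did not overlap, yet the log2 fold change of 0.72 ± 0.35 did not pass (edgeR adjusted p = 0.196). Its GFP libraries ranged from 17.3 to 47.3 CPM, with replicate 1 the lowest in both GFP groups, and they entered the shared estimate of the spread. With the YAP5SA groups compared alone MFAP5 was called, at 0.72 (adjusted p = 0.00074). FBN2, fibrillin-2, at 0.29 (adjusted p = 0.0699), and LOXL4, at 0.82 ± 0.28 (adjusted p = 0.0749), also missed the threshold. DESeq2 called both (adjusted p = 0.0253 and 0.0288), and so did a fit with the replicate number as a block, given at the end. LOXL4 was at 78.3, 59.6 and 101 CPM uninduced and 139, 110.1 and 172 induced, each replicate number being higher with doxycycline.

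In the proteoglycans, the small LUM rose and the large VCAN fell. LUM, which regulates fibril diameter, was at 96.0, 87.3 and 102 CPM in uninduced and 126, 122 and 139 in induced YAP5SA, and at 67.7 to 85.4 in the GFP libraries. The ranges were separate, with a rise of 0.44 ± 0.09 (edgeR adjusted p = 0.00496). VCAN, versican, a hyaluronan-binding proteoglycan, was at 693, 752 and 744 CPM uninduced and 608, 572 and 571 induced, and at 722 to 865 in the GFP libraries. Its induced libraries were the lowest of the 12, and the fall was -0.32 ± 0.06 (edgeR adjusted p = 0.00288). CRIM1 was at 944, 975 and 944 CPM uninduced, 1113, 1199 and 1069 induced and 785 to 856 in the GFP libraries, and it rose by 0.24 ± 0.05 (edgeR adjusted p = 0.00256). For CRIM1 as well, the 3 ranges were separate.

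Whether doxycycline acted differently in the lines was tested as the difference between the effects (the interaction). It was called for 7 of the 47 genes (14.9%), 3 positive and 4 negative, beside 6.88% of all genes (3.60% and 3.28%). COL12A1 differed by 0.73 ± 0.12 (edgeR adjusted p = 0.00319), FBLN5 by 0.63 ± 0.17 (adjusted p = 0.0378) and THBS1 by 0.50 ± 0.08 (adjusted p = 0.00362). COL7A1 differed by -0.85 ± 0.12 (adjusted p = 0.00162), VCAN by -0.32 ± 0.09 (adjusted p = 0.0461), FN1 by -0.28 ± 0.07 (adjusted p = 0.0265) and COL6A2 by -0.26 ± 0.06 (adjusted p = 0.0211). This comparison shares the YAP5SA libraries with the one on induction. LOXL4 (0.80, adjusted p = 0.2995), CCDC80 (0.74, adjusted p = 0.0679), MFAP5 (0.68, adjusted p = 0.519), EFEMP1 (0.61, adjusted p = 0.0844) and COL11A1 (0.60, adjusted p = 0.174) had values of similar size that did not pass. DESeq2 called CCDC80 (adjusted p = 0.00203) and EFEMP1 (adjusted p = 0.00929). A fit with the replicate number as a block called LOXL4, as given at the end.

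Library by library, the calls of COL12A1, THBS1 and COL7A1 held in all 12 fits that left out 1 library and in all 8 other settings. FN1 lost its call without GFP replicate 2 or 3, GFP with doxycycline replicate 1 or 2, uninduced replicate 2 or 3, or induced replicate 1 (-0.28 to -0.24). FBLN5 lost it without GFP replicate 2 or 3, GFP with doxycycline replicate 1 or 3, uninduced replicate 3, or induced replicate 1 or 2 (0.55 to 0.65), and in limma-voom (adjusted p = 0.0668). COL6A2 lost it without GFP replicate 1 or 3, GFP with doxycycline replicate 2, uninduced replicate 1 or 2, or induced replicate 2 (-0.25 to -0.23), and with the GC correction (-0.16, adjusted p = 0.121). VCAN kept it only without GFP replicate 2 or GFP with doxycycline replicate 3 among the left-out fits, and lost it with upper-quartile scaling (adjusted p = 0.0551). The count of positive calls rose from 3 to 5 without GFP replicate 2 and to 4 without induced replicate 3. It fell to 2 without GFP replicate 3, uninduced replicate 3, or induced replicate 1 or 2. The count of negative calls fell from 4 to 1 or 2 in 9 of those 12 fits, all but the ones without GFP replicate 2 (3), GFP with doxycycline replicate 3 (5) and induced replicate 3 (4).

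**Figure D4:**
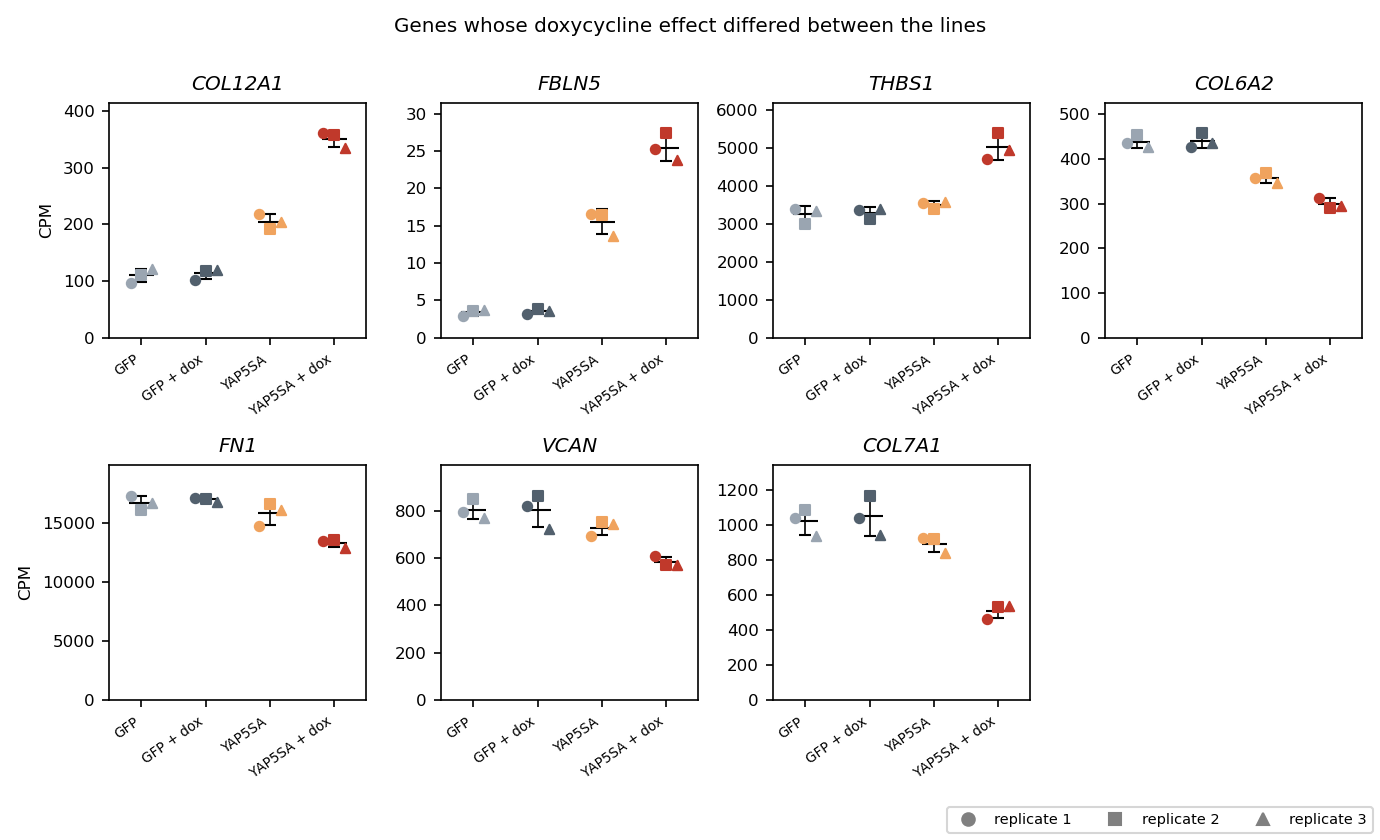
CPM in single libraries (points, shaped by replicate number) with the mean ± SD of each group (bars, n = 3) for the 7 genes whose doxycycline effect differed between the lines. The induced YAP5SA libraries lie apart from the uninduced ones in every panel, whereas both GFP groups overlap.

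Before any doxycycline the lines already differed in 17 of the 47 genes, 14 higher and 3 lower in uninduced YAP5SA than in GFP. The called share was 36.2%, beside 8.65% of all genes (6.04% higher and 2.61% lower), and the median log2 difference was 0.12 over the members and -0.00 over all genes. FBLN5, MFAP5, LOX, COL11A1, THBS2 and COL12A1 led the higher genes, and POSTN, COL6A2 and COL6A1 were lower. By role, 4 of 7 fibrillar collagens (COL3A1, COL5A1, COL5A2 and COL11A1) and 5 of 11 elastic fibre genes (FBN2, FBLN5, EFEMP1, LTBP1 and MFAP5) were higher and none lower. The identity of the line, its construct and any expression of the transgene without doxycycline cannot be told apart in this comparison, which shares the uninduced libraries with the induction comparison. YAP1 was at 221, 375 and 345 CPM in these uninduced libraries and at 173, 332 and 321 in GFP.

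Among the called members the widest gaps were in FBLN5, MFAP5 and LOX. FBLN5 was at 2.88, 3.61 and 3.67 CPM in GFP against the 13.6 to 16.6 given above for uninduced YAP5SA, a log2 difference of 2.20 ± 0.12 (edgeR adjusted p = 8.77e-07). MFAP5 was at 17.3, 35.8 and 44.3 CPM in GFP against 128 to 154, a difference of 2.11 ± 0.37 (adjusted p = 0.0106). For both genes all libraries of one line lay above all of the other. LOX, the lysyl oxidase for which the family is named, was at 76.7, 149.6 and 159.5 CPM in GFP, 75.6, 142 and 155 in GFP with doxycycline, 398, 345 and 292 in uninduced and 443, 396 and 348 in induced YAP5SA. Replicate 1 was the lowest in the GFP groups and the highest in the YAP5SA groups, and the lines did not overlap. The LOX difference without doxycycline was 1.42 ± 0.32 (adjusted p = 0.028). It lost its call without GFP replicate 1 or 2 or uninduced replicate 1 or 2 (1.16 to 1.55), without the low-count filter and with the groups compared alone. Wider than LOX but not called were COL5A3, at 1.85 ± 0.54 (adjusted p = 0.0521), and DCN, at -1.53 ± 0.63 (adjusted p = 0.172), both with few reads. COL5A3 was called in limma-voom (adjusted p = 0.0453) and with the groups compared alone (adjusted p = 0.023).

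Fibrillar collagens followed. COL11A1 was at 372, 264 and 387 CPM in GFP, less than any uninduced library, a difference of 1.09 ± 0.17 (edgeR adjusted p = 0.00409). COL5A2 was at 228, 193 and 263 CPM in GFP and 342, 326 and 351 in uninduced YAP5SA, a difference of 0.58 ± 0.12 (adjusted p = 0.012) that was not called without the low-count filter. COL3A1 was at 9.15, 12.0 and 13.8 CPM in GFP, and its difference of 0.64 ± 0.17 (adjusted p = 0.0379) was lost without GFP replicate 1 or 2 or uninduced replicate 1 or 3 (0.46 to 0.68), without the low-count filter and with the groups compared alone. COL3A1 and COL5A2 lie 19.1 kb apart on chromosome 2, on opposite strands. COL5A1 was higher by 0.40 ± 0.07 (adjusted p = 0.00604). COL12A1, the collagen that decorates such fibrils, was at 97.1, 111 and 121 CPM in GFP, a difference of 0.90 ± 0.08 (adjusted p = 0.000117).

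Of the glycoproteins, THBS2, the low-level paralogue of THBS1, was at 5.36, 3.61 and 3.40 CPM in GFP and 7.15, 8.65 and 7.87 in uninduced YAP5SA. Its difference was 0.94 ± 0.17 (edgeR adjusted p = 0.00441), and its ranges in the lines did not overlap. THBS1 itself did not pass (0.11, adjusted p = 0.284). POSTN was at 2.88, 2.54 and 2.13 CPM in GFP, all above uninduced YAP5SA, a difference of -0.99 ± 0.21 (adjusted p = 0.012) that was lost without GFP replicate 1 (-0.88) or uninduced replicate 1 (-0.84). EFEMP1 was at 67.5, 58.4 and 58.0 CPM in GFP, and its difference of 0.58 ± 0.13 (adjusted p = 0.0237) was lost without GFP replicate 2 or 3 or uninduced replicate 1 or 2 (0.52 to 0.58) and without the low-count filter. COL6A2, at 435, 454 and 426 CPM in GFP, was lower in uninduced YAP5SA by -0.29 ± 0.04 (adjusted p = 0.00135). The other differences, in COL6A1, FBN2, LTBP1, LUM and CRIM1, were between -0.19 and 0.49. Of these, COL6A1 lost its call without any 1 library but uninduced replicate 3, FBN2 and LUM without GFP replicate 1 or 2 or uninduced replicate 1 or 3 and without the low-count filter, and CRIM1 without GFP replicate 2 (0.18). The count of higher genes was 8 to 14 when 1 library was left out, lowest without GFP replicate 2 (8) and next without uninduced replicate 1 (9), and the count of lower genes fell to 1 without GFP replicate 1 or uninduced replicate 1 and to 2 without GFP replicate 2 or 3 or uninduced replicate 2. Without the low-count filter 8 were higher.

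**Figure D5:**
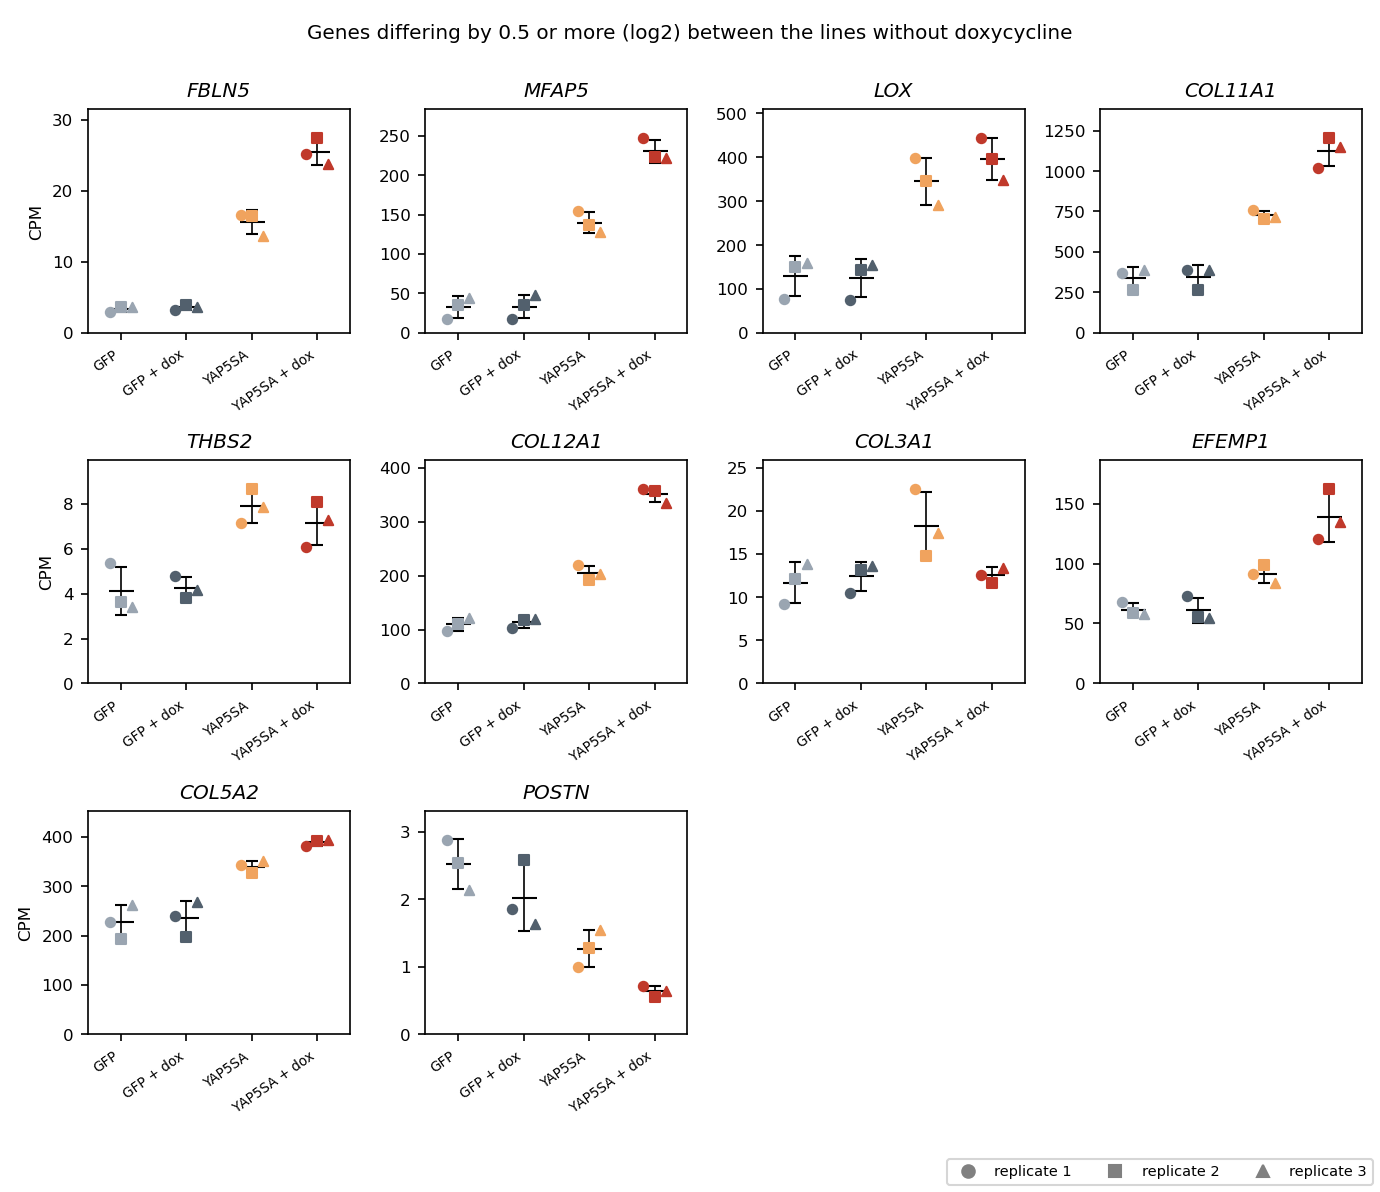
CPM in single libraries (points, shaped by replicate number) with the mean ± SD of each group (bars, n = 3) for members called at an absolute log2 difference of at least 0.5 between the lines without doxycycline. FBLN5, MFAP5, LOX and COL11A1 lie higher in both YAP5SA groups than in both GFP groups, without overlap.

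With doxycycline in both lines, 28 of the 47 genes (59.6%) differed, 17 higher and 11 lower in YAP5SA, beside 38.3% of all genes (19.9% and 18.4%). FBLN5 differed by 2.83 ± 0.11 (edgeR adjusted p = 1.02e-08), MFAP5 by 2.79 ± 0.38 (adjusted p = 0.000434) and COL11A1 by 1.69 ± 0.17 (adjusted p = 3.7e-05). LOX was higher by 1.67 ± 0.32 (adjusted p = 0.00332) and COL12A1 by 1.63 ± 0.08 (adjusted p = 5.74e-08). POSTN was lower by -1.67 ± 0.25 (adjusted p = 0.000152) and COL7A1 by -1.04 ± 0.08 (adjusted p = 1.91e-06). COL5A3, a minor collagen V chain with 214 reads in all, was at 0.593, 0.199 and 0.119 CPM in GFP with doxycycline and 1.03, 0.907 and 1.93 in induced YAP5SA. Its libraries did not overlap, and the difference was 2.07 ± 0.50 (adjusted p = 0.00547). COL3A1 and TGFBI, which were highest in uninduced YAP5SA, did not pass here, at 0.01 and -0.21. LOXL3 was lower by -0.52 (adjusted p = 0.0349), a call lost without replicate 1 or 2 of GFP with doxycycline or induced replicate 1 or 3. Its exons overlap HTRA2 and DOK1 on the other strand, whose reads came to 240% and 436% of its own, and the strand setting of the counting is not given in the sources used here.

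The comparisons share libraries, so their values for the leading genes are only set side by side, as log2 differences between the lines without doxycycline and then on induction. COL12A1 had 0.90 and 0.78, FBLN5 2.20 and 0.71, COL11A1 1.09 and 0.63, and EFEMP1 0.58 and 0.60. COL6A2 had -0.29 and -0.25, and POSTN -0.99 and -0.998. COL3A1 went the other way, passing both tests as higher between the lines and lower on induction, with the values given above. TGFBI fell on induction and did not pass between the lines, where its uninduced YAP5SA libraries were the higher ones. For THBS1 the values were 0.11 and 0.52, for CCDC80 0.18 and 0.80, and for COL7A1 -0.19 and -0.81, the first of each not passing the test. For LOX they were 1.42 and 0.20, for THBS2 0.94 and -0.14 and for COL5A2 0.58 and 0.20, the second of each not passing.

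Genes around the matrix list were read from 3 further lists, whose counts stand beside the 19.1% of all genes called on induction and the 8.65% called between the lines without doxycycline. Of 31 genes of collagen biosynthesis, folding and processing 30 were tested, and on induction 1 was higher and 8 lower (30%), with a median log2 fold change of -0.11. The prolyl 4-hydroxylase subunits P4HA2 and P4HA1, which stabilise the collagen helix, fell by -0.26 ± 0.04 and -0.24 ± 0.04 (edgeR adjusted p = 0.000262 and 0.00155). BMP1, which cleaves procollagen propeptides, fell by -0.20 ± 0.03 (adjusted p = 0.00111), and FKBP10, a collagen chaperone, by -0.21 ± 0.05 (adjusted p = 0.00623). Between the lines without doxycycline 2 were higher and 0 lower (6.67%): PLOD2, which hydroxylates collagen lysines, by 0.85 ± 0.08 (adjusted p = 0.000142), and SEC23A, a coat protein of secretory vesicles, by 0.20 ± 0.04 (adjusted p = 0.0162). SEC23A was not called without GFP replicate 1 or 2 or uninduced replicate 1 or 2.

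Of 20 collagens outside the list 13 were tested, and on induction only COL27A1 passed (7.69%), with -0.23 ± 0.05 (edgeR adjusted p = 0.00539). COL9A2, COL17A1 and COL14A1 (23.1%) were lower in uninduced YAP5SA than in GFP, by -0.52, -0.35 and -0.59, and each lost its call without GFP replicate 1 or 2 or uninduced replicate 1 or 2. COL9A2 lost it also without uninduced replicate 3 and COL14A1 without GFP replicate 3. Of 45 other matrix glycoproteins and proteoglycans 28 were tested, and on induction MFAP3 (0.21) and MATN2 (0.25) rose while SPON2 (-1.88) and MMRN2 (-0.86) fell, 14.3% in all. MATN2 was not called with upper-quartile scaling or without any 1 of the YAP5SA libraries but induced replicate 3, MMRN2 without uninduced replicate 1 or 2 or induced replicate 1, and SPON2 without uninduced replicate 1 or induced replicate 1 or 3, or with the groups compared alone. SPON2 moved to -1.31 without induced replicate 1. Reads were few for SPON2 (91 in all 12 libraries) and MMRN2 (396). Between the lines 4 of the 28 were higher and 1 lower (17.9%) in uninduced YAP5SA, among them FMOD (fibromodulin, a collagen-binding proteoglycan) by 1.31 ± 0.26 (edgeR adjusted p = 0.00801), ECM1 by 1.05 ± 0.18 (adjusted p = 0.00634), MATN3 by 0.48 and EMILIN2 by -0.72. MATN3 was not called without GFP replicate 1 or 3 or uninduced replicate 1 or 2. Doxycycline in the GFP line called none of the tested genes of these lists.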

How the data were processed

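Each of the 12 RNA-seq libraries started from 1000 ng of total RNA and an mRNA kit, per the labels' protocols. The authors deposited whole-number counts per gene. DRAGEN, featureCounts, Subread, limma and DESeq2 on GRCh38 (hg38) are named per the submitters' processing notes. For their versions, roles, annotation and strandedness, nothing is given in the sources used here.

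Counts of genes kept by filterByExpr were TMM-scaled and fitted in edgeR 4.0.16 (R 4.3.3) with robust quasi-likelihood over all 12 libraries (8 residual degrees of freedom, common biological coefficient of variation 7.48%), after the code was tested on simulated data. The threshold was a Benjamini-Hochberg adjusted p of 0.05 over all 17470 genes. Exon lengths and positions came from GENCODE 29.

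The members and lists were chosen with earlier results of these data known. Single-library values are given for members called on induction or interaction, and between uninduced lines at an absolute log2 of 0.5 or more. From each further list up to 4 called genes with the smallest p are named. COL1A1, COL1A2, MFAP5, LOXL4, LOX and COL6A3 were described on induction after their values were seen.

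Alternatives were RLE and upper-quartile scaling, other low-count filters, DESeq2 1.42.0, limma-voom (limma 3.58.1), leaving out each library, a replicate block and the groups alone. A GC correction and a block of the GFP libraries alone were chosen after seeing the data. Same-numbered libraries deviated together between the GFP groups (r = 0.23, 0.42 and 0.41). Fits with the replicate number as a block are therefore given there beside the main fit, which had no block. Some marker genes are not reported here.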

Additional observations from a re-analysis of the deposited data

Results flagged for a closer look

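The doxycycline effect of 7 members differed between the YAP5SA line and the GFP line by the test of the difference itself (edgeR, adjusted p below 0.05 over all genes). On the log2 scale the difference was 0.73 for COL12A1, 0.63 for FBLN5 and 0.50 for THBS1, where the YAP5SA line was the one that rose. It was -0.85 for COL7A1, -0.32 for VCAN, -0.28 for FN1 and -0.26 for COL6A2, where the YAP5SA line was the one that fell.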

How the results depend on the processing

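No called member changed direction under any alternative. Of the called values of single members in other settings, 155 of 162 kept their call on induction, 53 of 56 in the interaction, 144 of 153 between the lines without doxycycline and 249 of 252 with it. Among fits without 1 library the counts were 89 of 108, 54 of 84, 74 of 102 and 157 of 168. With 1 library left out, 7 to 8 members were higher and 7 to 10 lower on induction, 2 to 5 and 1 to 5 in the interaction, 8 to 14 and 1 to 3 between the lines without doxycycline, and 17 to 20 and 8 to 12 with it. A group left with 2 libraries shared its spread with the others. Without the low-count filter 8 members were higher between the lines without doxycycline, and DESeq2 called 7 positive interactions. With the replicate block 7 interactions were positive and 10 negative, 11 members rose and 13 fell on induction, 18 were higher and 3 lower between the lines without doxycycline, and 20 and 13 with it. The cause of these shifts was not tested. COL3A1 was not called in the blocked fit, on induction or between the lines without doxycycline. On induction the genes that the block newly called included LOXL4 (0.83, edgeR adjusted p = 3.88e-10) and FBN2 (0.29, adjusted p = 8.1e-05). LOXL3 (-0.49, adjusted p = 0.0011) and TNC (-0.21, adjusted p = 0.0115) were among them too. In the interaction they included LOXL4 (0.81, edgeR adjusted p = 1.69e-07), FBN2 (0.21, adjusted p = 0.025) and LOXL3 (-0.45, adjusted p = 0.0319). Outside the GFP line same-numbered libraries correlated at -0.29 to -0.12 for replicate 1 and at 0.20 to 0.35 for replicates 2 and 3. Not every pair thus passed 0.1, and the values with the block are given here only. Depth limits POSTN, COL5A3, BGN, EMILIN1 and DCN, and outside the list SPON2 and MMRN2, which had 86 to 488 reads in all.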
